A study of Mus musculus with 72 samples.

Results

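Tertiary butyl alcohol (TBA), a small branched alcohol used as a solvent and fuel additive, was given in drinking water at 20 mg/mL for 14 d, and the livers of 9 dosed mice were compared with those of 9 controls that drank water with 0 mg/mL for the same 14 d. These 18 libraries were taken from 72 by their labels for dose and duration, and all 30146 probes of the assay were kept in view. No library of either group held fewer than 100000 counts, so none was left out. All animals were female B6C3F1 mice, a cross of C57BL/6 and C3H stock, 9 to 11 weeks of age, housed singly after randomisation that balanced body weight. The labels name no allele, transgene or second agent for any group. The whole series held 8 groups of 9 animals (0, 10, 20 and 40 mg/mL, each for 14 or 28 d), and each library came from 1 animal. RNA was measured by TempO-Seq, in which pairs of oligos that bind side by side on a chosen transcript are ligated, amplified and counted, on material scraped from formalin-fixed, paraffin-embedded liver sections. By its title, the study looked at interference with thyroid function as a possible route to the follicular cell adenomas that TBA gives in the thyroid of female mice.

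The liver bears on that question because it clears thyroid hormone. Hepatocytes take up thyroxine through carriers in their membrane, remove iodine with the deiodinase Dio1, and conjugate the hormone with UDP-glucuronosyltransferases (Ugt genes) and sulfotransferases (Sult genes) for export into bile. Many foreign compounds raise these enzymes through the nuclear receptors CAR and PXR, whose best known targets in mouse liver are cytochromes P450 of the Cyp2b, Cyp2c and Cyp3a families. Liver gene expression in mice also differs between the sexes under the pattern of growth hormone release, and the liver makes the acute-phase proteins of the blood when inflammatory cytokines reach it.

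Control libraries held 9.05 to 12.4 M counts and dosed libraries 7.89 to 12.7 M, a difference in means of -0.539 M (two-sided exact permutation p = 0.405). Levels are given below as CPM, counts scaled to the size of each library after TMM normalisation, whose per-library factor was 0.847 to 0.961 in the controls and 0.882 to 1.26 in the dosed animals. The 10 hepatocyte markers together reached 48600 to 67400 CPM in the controls and 31800 to 65100 CPM in the dosed livers, and Alb, the gene of serum albumin, was at 5330 CPM or more in every control. A pair of dosed libraries stood apart. Replicate 5 held 25.8% of its counts in the 20 most abundant features, against 15.1 to 20.6% in the other dosed animals, and its summed acute-phase level was above that of every other animal. Replicate 9 had the highest scaling factor (1.26) and the lowest summed markers of hepatocytes, Kupffer cells and sinusoidal endothelium in the group. For a part of the genes and lists, values are also given without 1 or both of these animals.

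In the dosed livers 6 of 17050 tested features passed an adjusted p of 0.05 in the edgeR quasi-likelihood test, 5 of them higher and 1 lower than control (0.0352% of those tested). The higher features were Cyp2a22, Cyp2c55, Akr1b10, Cxcl1 and Saa2, and the lower one was a probe of Serpina1e. A further 6 genes lay just outside, at an adjusted p of 0.0508: Cyp2c29, Cyp2b10 (both of its probes), Lcn2 and Nos1ap with higher levels, and Slc22a28 and Ablim3 with lower levels. At an unadjusted p under 0.05 there were 602 higher features (3.53%) and 430 lower ones (2.52%), and the median log2 fold change of all tested features was 0.02. The count of 6 is small and moved with the method: DESeq2 called 17 features and limma with quality weights 19, and leaving out 1 animal at a time gave from 1 (without control replicate 4) to 14 (without dosed replicate 4). Without dosed replicates 5 and 9 together, 5 features were called, all higher: Cyp2a22, Cyp2c55, Cyp2c29, Cd36 and Pctp, of which Cyp2a22 and Cyp2c55 were among the 6.

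Cytochromes P450 made up 2 of the 5 higher calls. Cyp2a22, a member of the Cyp2a family of P450 enzymes, ranged from 4.69 to 15.7 CPM in the controls (median 6.09) and from 11.0 to 57.9 CPM in the dosed animals (median 35.0). In all, 8 of 9 dosed animals were above every control, and the exception was replicate 9. Its log2 fold change was 2.13 (SE 0.35, 4.39-fold, adjusted p = 0.00106), and it passed the threshold in all 11 alternative analyses and with each of the 18 animals left out in turn (highest adjusted p 0.00622).

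Cyp2c55, a P450 of the Cyp2c family that CAR and PXR activators raise, was at 3.75 to 11.5 CPM in the controls (median 7.48) and 9.41 to 196 CPM in the dosed animals (median 30.8). Replicate 5 was the lowest dosed animal and the only one within the control range. The log2 fold change was 3.12 (SE 0.63, adjusted p = 0.0289). The call was kept with 8 of the 18 animals left out in turn (highest adjusted p 0.110, without control replicate 4), while the log2 fold change stayed between 2.75 and 3.27.

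Cyp2b10, the P450 most often used as a sign of CAR activation, was at 31.6 to 101 CPM in the controls (median 54.6) and at 128 to 2330 CPM in the dosed livers (median 536). Every dosed animal was above every control. The log2 fold change was 3.45 (SE 0.78, adjusted p = 0.0508), and a second probe of the gene gave 3.63. Cyp2c29, an abundant P450 and another CAR target, also had no overlap, with 1080 to 1810 CPM in the controls (median 1230) and 2170 to 11100 CPM in the dosed animals (median 2770). The log2 fold change of this gene was 1.83 (SE 0.40, adjusted p = 0.0508), and other probes of it gave 1.72 (adjusted p = 0.165) and 1.485 (adjusted p = 0.545). For both genes the two-sided exact permutation test of log2 CPM gave p = 4.11e-05, the smallest that 9 against 9 animals allow (0.000535 adjusted over the 26 genes that were named in every case). Groups without overlap always give this smallest value, so it adds nothing to the ranges. The 26 genes were chosen with earlier results of these data known. Values adjusted over them, here and below, are not adjusted over all tested features. Over all tested features, 4 were higher in all 9 dosed animals than in all 9 controls (0.0235%), and these were 2 probes each of Cyp2b10 and Cyp2c29.

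**Figure D1:**
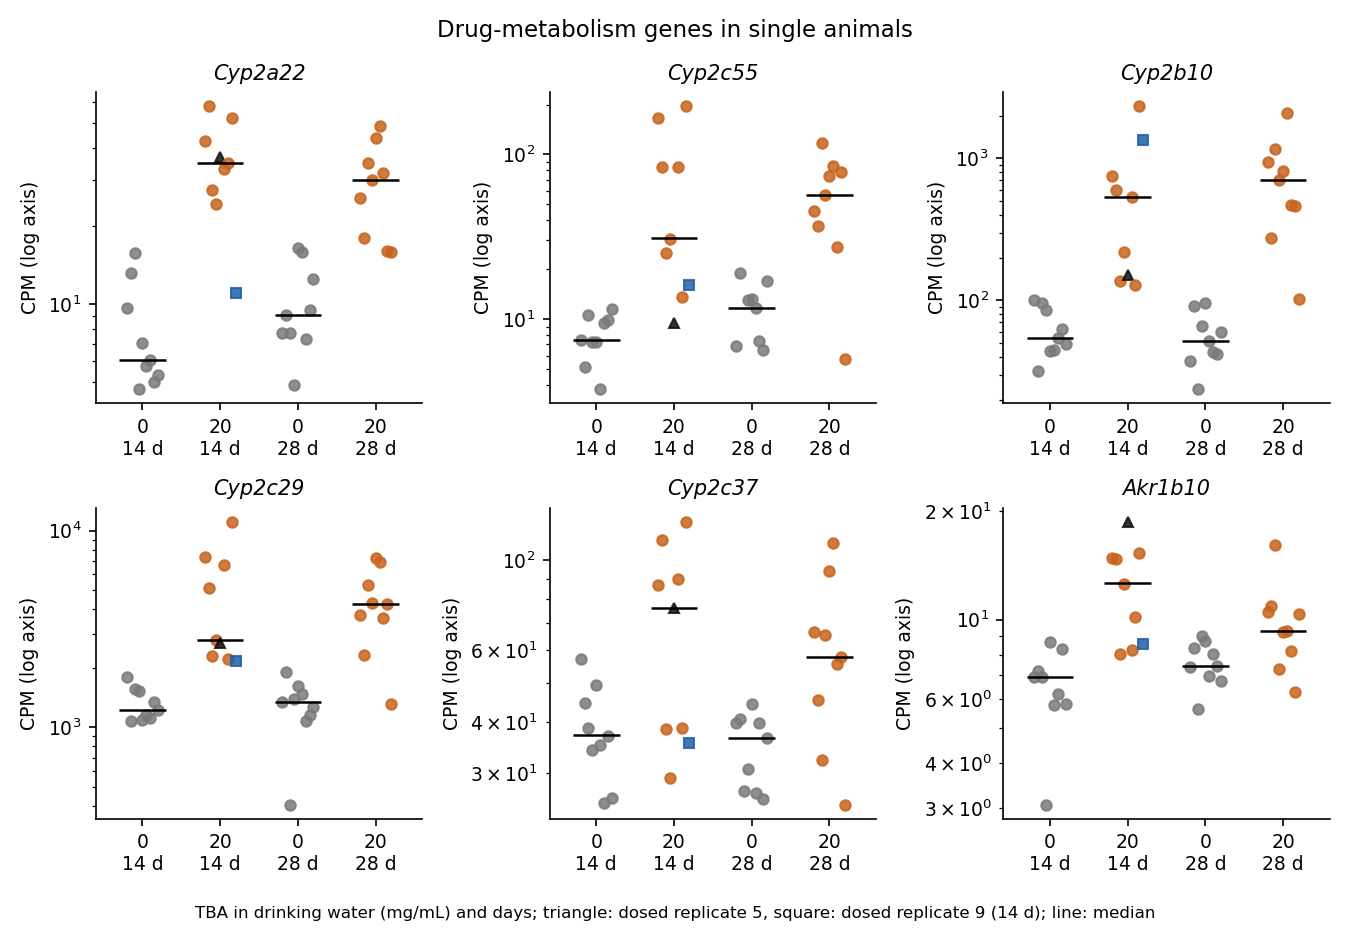
CPM (log axis) of 5 cytochromes P450 and Akr1b10 in each animal at 0 and 20 mg/mL after 14 d and 28 d, where points are animals and lines are group medians. After 14 d all 9 dosed animals lay above all 9 controls for Cyp2b10 and Cyp2c29, while for Cyp2a22 replicate 9 (square, 11.0 CPM) and for Cyp2c55 replicate 5 (triangle, 9.41 CPM) lay within the control range.

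The spread among dosed animals was wide for these genes. Summed over the 27 measured CAR and PXR targets, the dosed livers held 9320 to 33000 CPM (median 13200) and the controls 10400 to 13600 CPM (median 11300), so the summed levels overlapped. Replicate 8 had the highest sum and replicate 9 the lowest. Of the 27 genes, 10 had an unadjusted p under 0.05 and a higher level, 0 had a lower one, and 25 had a positive log2 fold change, with a median of 0.46. All tested features gave 3.53% higher and 2.52% lower at the same threshold. Without dosed replicates 5 and 9 the count was again 10 of 27, and it was 16 of 27 in a fit that included each library's log2 scaling factor. Beside the P450 genes already given, Abcc4, an efflux pump of the basolateral membrane, had a log2 fold change of 2.45 (SE 0.69), Cyp2c37 0.86 (SE 0.29), Cyp2a5 0.65 (SE 0.24) and Gstm1, a glutathione transferase, 0.62 (SE 0.20), none of which passed the adjusted threshold. Por, the reductase that passes electrons to all microsomal P450 enzymes, gave 0.69 (SE 0.33, adjusted p = 0.778), and 0.48 without replicate 9. Cyp3a11, a main PXR target, was at 478 to 811 CPM in the controls and 337 to 1090 CPM in the dosed animals, with a log2 fold change of 0.17 (SE 0.29, adjusted p = 0.979). Cyp1a2, a target of the aryl hydrocarbon receptor, gave -0.22 (SE 0.29, adjusted p = 0.979), and its sign turned when dosed replicates 5 and 9 were left out.

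The window around the start site of Cyp2c29, whose 9 dosed values all lay above the controls, is shown because CAR and PXR bind as dimers to repeats of the nuclear receptor core site AGGTCA. It spans 250 bases before to 50 bases after the start (RefSeq, GRCm38.p6, chr19:39286835-39287134, plus strand), and capitals mark a core site, 1 copy at base -154 from the start site.
Cyp2c29: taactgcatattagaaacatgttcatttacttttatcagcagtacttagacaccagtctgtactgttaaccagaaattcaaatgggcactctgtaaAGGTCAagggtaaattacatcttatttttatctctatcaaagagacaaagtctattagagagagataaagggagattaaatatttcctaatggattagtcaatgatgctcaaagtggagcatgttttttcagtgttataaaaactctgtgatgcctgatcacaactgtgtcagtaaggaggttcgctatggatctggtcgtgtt
This core site on either strand was found in 16.3% of 32851 such promoter windows, and none was found in the windows of Cyp2a22, Cyp2c55 or Cyp2b10. The window of Akr1b10 held 1 copy, at -215. No second copy, and so no exact repeat, was found in the Cyp2c29 window. A match describes these letters and no binding was measured.

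Akr1b10, an aldo-keto reductase that reduces aldehydes, was the remaining called gene of drug and aldehyde metabolism. It was at 3.06 to 8.69 CPM in the controls (median 6.92) and 8.04 to 18.7 CPM in the dosed animals (median 12.6), and 6 of 9 dosed animals were above every control. The log2 fold change was 0.92 (SE 0.19, 1.89-fold, adjusted p = 0.0269). The call was lost with 7 of the 18 animals left out in turn (highest adjusted p 0.132, without control replicate 4). A second probe of Akr1b10 gave 0.44 (SE 0.34, adjusted p = 0.932), and the gene with its probes summed gave 0.82 (adjusted p = 0.0414). Among 28 measured targets of NRF2, the factor that drives antioxidant genes, 7 had a higher level and 1 a lower one at an unadjusted p under 0.05 (median log2 fold change 0.24), and 0 passed after adjustment. The glutathione transferase Gstm4 gave 0.65 (SE 0.20) and Nqo1, a quinone reductase, 0.56 (SE 0.23), while Taldo1, an enzyme of the pentose phosphate pathway, gave -0.29 (SE 0.10). Of 21 glutathione transferases, 3 were higher at that threshold and 0 lower. Of 20 alcohol and aldehyde dehydrogenases and related enzymes, 2 were higher and 1 lower. At that threshold 3.53% of all tested features were higher and 2.52% lower.

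The acute-phase results rested on 1 animal. Saa2, a serum amyloid A apolipoprotein that the liver releases in inflammation, was at 45.2 to 102 CPM in the controls (median 71.0), at 27.0 to 81.1 CPM in 8 dosed animals and at 43400 CPM in dosed replicate 5. Its log2 fold change of 6.05 (SE 1.30, adjusted p = 0.0499) turned to -0.60 without that animal (adjusted p = 0.998). Cxcl1, a chemokine that attracts neutrophils, was at 4.89 to 15.7 CPM in the controls (median 8.37) and 2.36 to 337 CPM in the dosed animals (median 15.8), again with replicate 5 on top. Of the dosed animals, 5 were above every control and 2 below every control. The log2 fold change of 2.69 (SE 0.58, adjusted p = 0.0499) went to 1.21 without replicate 5 (adjusted p = 0.817).

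Other acute-phase genes were high in the same animal. Lcn2, a lipocalin that binds bacterial iron carriers, reached 1600 CPM in replicate 5 and 129 CPM in replicate 9, against 8.26 to 19.8 CPM in the controls. With all animals its log2 fold change was 3.68 (SE 0.83, adjusted p = 0.0508), 0.81 without replicate 5 and -0.26 without both. Saa1 stood at 62900 CPM in replicate 5 and at 143 to 357 CPM in the controls, and the 2 genes are near-identical copies whose probes may share reads. Orm2, an orosomucoid, stood at 676 CPM in replicate 5 and gave 2.18 with it and 0.28 without it. Nos1ap, an adaptor of neuronal nitric oxide synthase that is no acute-phase protein, was at 77.8 CPM in replicate 5 and 7.62 to 15.0 CPM in the controls, and its log2 fold change of 1.23 went to 0.73 (adjusted p = 0.563). Over the 29 measured acute-phase genes the summed level was 193000 CPM in replicate 5, 24800 to 48700 CPM in the other dosed animals and 50300 to 64600 CPM in the controls. In this sum the 8 other dosed animals all lay below every control. Serpina3k, an abundant serpin counted in this list, was at 6820 to 19600 CPM in the dosed animals and 23100 to 35100 CPM in the controls, without overlap (log2 fold change -0.91, SE 0.32, adjusted p = 0.553). With a mean of 28500 CPM in the controls and 15160 CPM in the dosed animals, Serpina3k made up a large part of the sum. The summed level therefore does not stand for the list as a whole.

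At an unadjusted p under 0.05, 11 acute-phase genes were higher and 1 lower, and without replicate 5 these counts were 2 and 1. They were 17 and 1 with all animals and the scaling factor in the fit. The median log2 fold change was 0.42 with replicate 5 and -0.20 without it. In replicate 5 the 2 measured neutrophil markers (Ly6g and Retnlg, 2 of 10 listed) summed to 25.6 CPM, within the control range of 13.8 to 37.7 CPM. Its 11 Kupffer cell markers summed to 416 CPM, against 231 to 311 CPM in the controls, and its 9 markers of B and plasma cells to 417 CPM, against 160 to 266 CPM. The list of B and plasma cell markers includes Xbp1, which is also in the unfolded protein response list. Its sum is therefore not a measure of those cells alone. The part of neutrophils, Kupffer cells, and B and plasma cells in the acute-phase values was not tested. In bulk tissue, more cells of a type and more RNA per cell cannot be told apart.

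**Figure D2:**
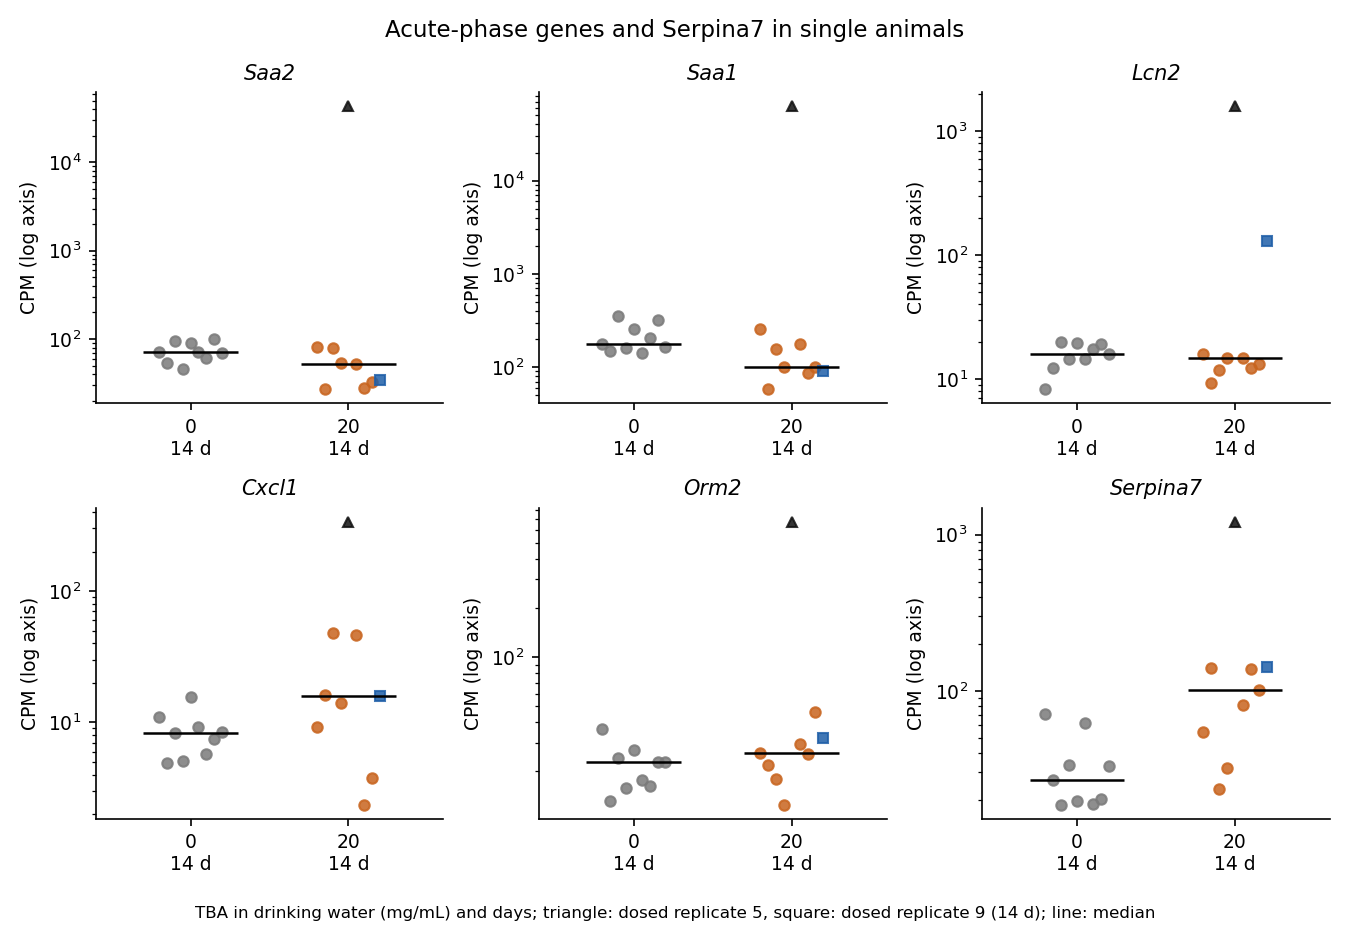
CPM (log axis) of 5 acute-phase genes and of Serpina7 in each animal after 14 d, where points are animals and lines are group medians. Dosed replicate 5 (triangle) was the highest animal in all 6 panels, at 43400 CPM for Saa2 and 337 CPM for Cxcl1, while the medians of Saa2 and Saa1 were lower in the dosed group than in the controls.

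The start site windows of Saa2, Saa1 and Cxcl1 are shown because these genes were high together in replicate 5. All run 5′ to 3′ from 250 bases before to 50 bases after the start (RefSeq, GRCm38.p6): Saa2 at chr7:46751583-46751882 on the plus strand, Saa1 at chr7:46742931-46743230 on the minus strand and Cxcl1 at chr5:90890995-90891294 on the plus strand. Capitals mark the C/EBP core TTGCNNAA, the nuclear receptor core site AGGTCA (read here as its reverse complement) and the NF-kB core GGGNNTTTC, each searched on both strands.
Saa2: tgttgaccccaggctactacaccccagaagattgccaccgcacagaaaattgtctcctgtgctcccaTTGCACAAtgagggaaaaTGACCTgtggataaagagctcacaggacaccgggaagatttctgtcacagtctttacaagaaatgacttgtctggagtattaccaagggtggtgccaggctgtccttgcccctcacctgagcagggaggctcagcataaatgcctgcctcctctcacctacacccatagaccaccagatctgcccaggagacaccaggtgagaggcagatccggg
Saa1: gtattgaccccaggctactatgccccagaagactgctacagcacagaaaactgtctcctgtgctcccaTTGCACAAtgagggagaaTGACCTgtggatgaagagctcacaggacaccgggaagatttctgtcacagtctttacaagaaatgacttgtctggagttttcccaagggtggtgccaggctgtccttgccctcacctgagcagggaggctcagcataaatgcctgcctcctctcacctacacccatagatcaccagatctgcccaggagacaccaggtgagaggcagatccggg
Cxcl1: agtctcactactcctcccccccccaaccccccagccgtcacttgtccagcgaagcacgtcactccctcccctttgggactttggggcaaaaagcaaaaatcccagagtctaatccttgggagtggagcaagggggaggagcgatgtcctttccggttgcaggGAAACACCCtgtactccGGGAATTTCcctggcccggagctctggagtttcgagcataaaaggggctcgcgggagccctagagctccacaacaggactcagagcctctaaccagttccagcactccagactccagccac
The Saa2 and Saa1 windows were identical in 287 of 301 aligned columns (95.3%), and each held a C/EBP core (bases -183 and -182) and a nuclear receptor core site (-165 and -164). Cxcl1 held 2 NF-kB cores, at -88 and -71, and none of the other motifs. Of 32851 windows, 10.8% held the C/EBP core, 4.36% the NF-kB core and 8.3% the STAT core TTCNNNGAA, which none of the 3 windows held. The window of Lcn2, also high in replicate 5 and not shown, held a C/EBP core at -216 and no NF-kB core. A C/EBP core was also in the windows of Cyp2b10 (-58) and Serpina1e (-211).

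Secreted proteins and male-biased genes were among those with lower levels. Serpina1e, 1 of several copies of the alpha-1-antitrypsin gene, was called through its less abundant probe, which was at 491 to 1680 CPM in the controls (median 766) and 28.1 to 400 CPM in the dosed animals (median 179). No dosed animal reached the lowest control, and the log2 fold change was -2.31 (SE 0.45, 4.94-fold lower, adjusted p = 0.0257). It passed with 15 of the 18 animals left out in turn (highest adjusted p 0.0704, without dosed replicate 5), and without replicates 5 and 9 together it gave -2.13 (adjusted p = 0.113). The main probe, which carries more counts, gave -0.48 (SE 0.21, adjusted p = 0.700), and the gene with its probes summed gave -0.56 (adjusted p = 0.559). The Serpina1 copies are near-identical and which of them each probe counts is uncertain.

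Slc22a28, a member of the organic anion transporter family, was at 5.58 to 15.7 CPM in the controls (median 10.4) and 0 to 5.55 CPM in the dosed animals (median 2.82), again without overlap. It had a log2 fold change of -1.89 (SE 0.42, adjusted p = 0.0508). Mug1, the plasma protease inhibitor murinoglobulin, was at 1870 to 2950 CPM in the controls and 675 to 1740 CPM in the dosed animals, also without overlap (log2 fold change -1.02, SE 0.26, adjusted p = 0.165). Ablim3, an actin-binding LIM protein, gave -0.85 (SE 0.19, adjusted p = 0.0508) with ranges that overlapped, 10.3 to 38.7 CPM against 25.2 to 66.9 CPM. Other probes of Ablim3 gave -0.78 (SE 0.20, adjusted p = 0.165) and -0.49 (SE 0.23, adjusted p = 0.750). Gm7298, a predicted gene, gave -1.21 (SE 0.30, adjusted p = 0.124). Tle1, a transcriptional corepressor, was at 10.6 to 24.3 CPM in the controls and 6.65 to 17.1 CPM in the dosed animals by the probe with the smallest p (-0.69, SE 0.17, adjusted p = 0.165), while its most abundant probe gave -0.34 (SE 0.14, adjusted p = 0.697). Over all tested features, 7 were lower in all 9 dosed animals than in all 9 controls (0.0411%): the less abundant probe of Serpina1e, Slc22a28, Mug1, 2 probes of Serpina3k, Cyp2c68 and Uba1.

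The major urinary proteins are small lipocalins that the liver secretes and that carry pheromones in urine, at higher levels in males. Of 12 measured Mup genes 10 were lower at an unadjusted p under 0.05, 0 passed after adjustment, and all 12 had a negative log2 fold change, between -0.89 and -0.22 (median -0.79). Their summed level was 48500 to 71300 CPM in the controls and 11200 to 63700 CPM in the dosed livers, and the lowest value was that of replicate 9. Mup3 was at 2860 to 5810 CPM in the controls and 1120 to 3320 CPM in the dosed animals (log2 fold change -0.85, SE 0.24, adjusted p = 0.325), and Mup20 gave -0.77 (SE 0.30). The count of 10 was 6 without replicate 9 and 3 without replicates 5 and 9, with a median of -0.61 in the latter case. Replicate 9 also had the lowest summed hepatocyte markers (31800 CPM), whose part in the Mup levels was not tested. Mup genes are near-identical in sequence, so their probes are not independent measures.

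A list of 21 measured male-biased liver genes, which includes 4 of the Mup genes, had 11 lower members and 0 higher ones at that threshold (median log2 fold change -0.69). Among them were Cyp7b1, an oxysterol hydroxylase (-0.95, SE 0.31), Ugt2b38 (-1.88, SE 0.67), Cyp2d9, a male-specific P450 (-0.85, SE 0.31), and the complement components C9 (-0.65, SE 0.24), C8a (-0.65, SE 0.25) and C6 (-0.62, SE 0.25). The count was 9 without replicate 9 and 6 without replicates 5 and 9 (median -0.60). Of 27 measured female-biased genes, 8 were higher and 1 lower (median 0.25). Those with higher levels included Sult2a1, Hao2, a peroxisomal oxidase of 2-hydroxy acids (1.48, SE 0.42), and Cyp17a1, a steroid hydroxylase (1.21, SE 0.35). In the growth hormone signalling list, 2 of 17 genes were lower and 0 higher: Igf1, the growth factor that growth hormone induces (-0.34, SE 0.13), and Igfals, which holds it in plasma (-0.62, SE 0.28). Without replicate 9 the list had 1 lower member and 0 higher ones. None of the genes named for these 3 lists passed after adjustment in the edgeR fit. The lists share members, so their counts are not separate findings. Sult2a1 and Sult2a2 are in the female-biased and sulfotransferase lists, and Acot3, Cyp4a10 and Cyp4a14 in the female-biased and PPARA lists. C6, C8a and C9 are in the male-biased list and that of clotting and complement. Abcc4 and Gstm1 are in the CAR and PXR list and the NRF2 list. Cyp2b9, Cyp2b13, Cyp3a16, Cyp3a41a and Cyp2a4 are in the CAR and PXR list and the female-biased list. Of the lists given below, Ugt2b38 is in the Ugt list and Slco1a1 in that of thyroid hormone transport, and both are also in the male-biased list. Dio1 is in the lists of thyroid hormone transport and response.

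**Figure D3:**
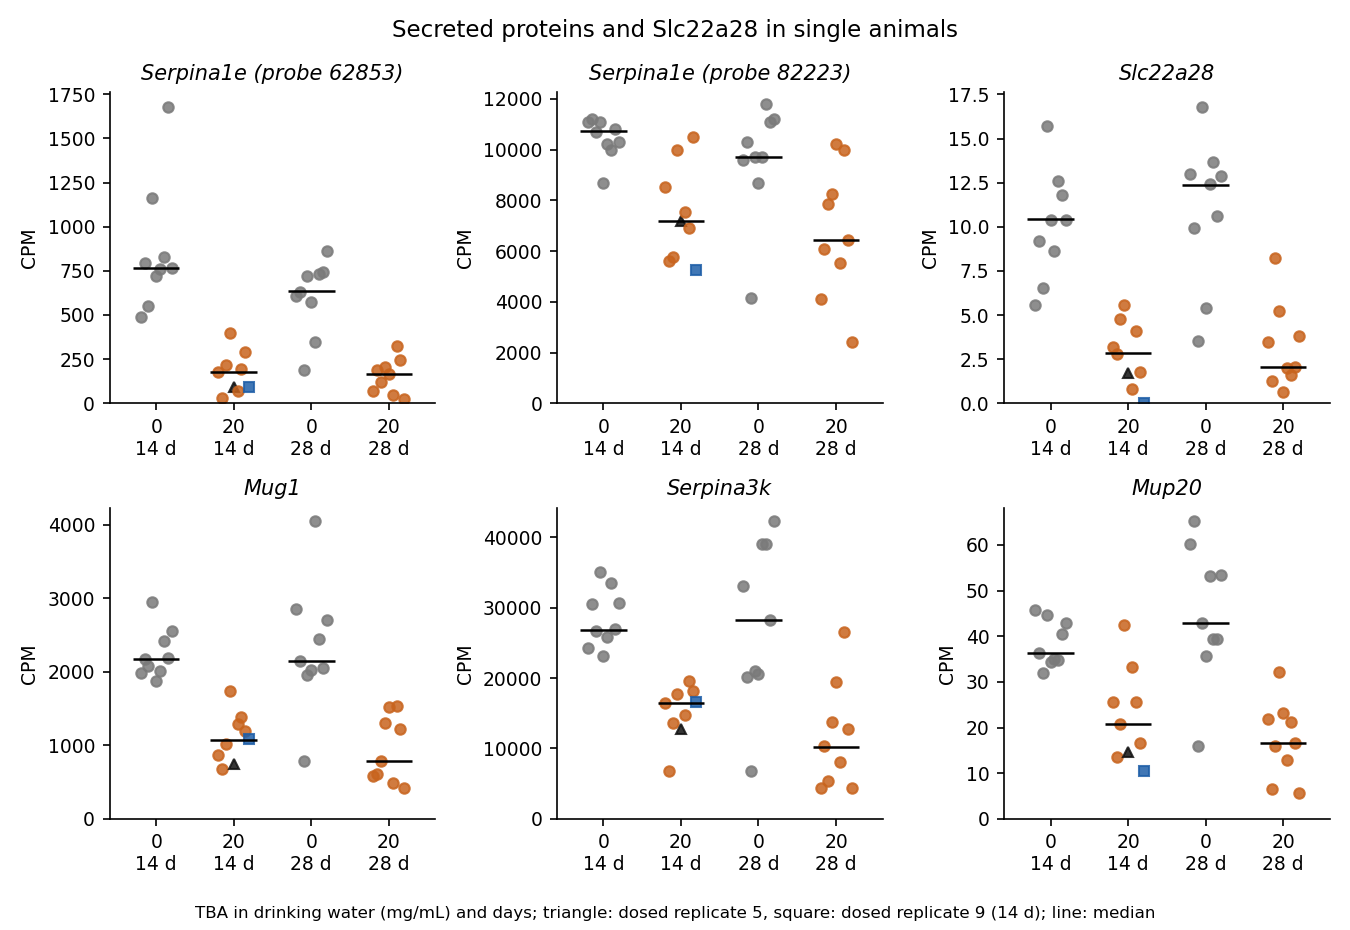
CPM of 4 secreted proteins (Serpina1e by 2 probes) and of the transporter Slc22a28 in each animal at 0 and 20 mg/mL after 14 d and 28 d, where points are animals and lines are group medians. After 14 d the groups did not overlap for the less abundant probe of Serpina1e (first panel), Slc22a28, Mug1 and Serpina3k, and they did for its main probe (second panel) and Mup20.

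Among the enzymes that conjugate thyroid hormone, none of the 15 Ugt or 12 Sult genes measured passed the adjusted threshold in the edgeR fit. Ugt1a1, which glucuronidates bilirubin and thyroxine, was at 2340 to 3280 CPM in the controls (median 2740) and 1880 to 3910 CPM in the dosed animals (median 2630), with a log2 fold change of -0.05 (SE 0.24, adjusted p = 0.990). The control range lay within that of the dosed animals. In a fit that included each library's log2 scaling factor its sign turned, to 0.28, as did that of Slco1b2, to 0.19. Ugt1a6a gave 0.52 (SE 0.39), Ugt1a9 0.05 (SE 0.60), Ugt2b34 0.14 (SE 0.19), Ugt2b35 0.26 (SE 0.15) and Ugt2b5 -0.32 (SE 0.23). Ugt2b1 was at 68.9 to 129 CPM in the controls and 23.9 to 107 CPM in the dosed animals (log2 fold change -0.55, SE 0.25, adjusted p = 0.744), and without replicates 5 and 9 it gave -0.38. The two-sided exact permutation test of Ugt2b1 alone gave p = 0.00551 (0.0239 adjusted over the 26 genes). Of 15 measured Ugt genes, 1 (Ugt1a6b) was higher and 3 (Ugt2b38, Ugt2a3 and Ugt2b1) were lower at an unadjusted p under 0.05 (median log2 fold change 0.05). Without replicates 5 and 9, 2 were higher and 1 lower. With all animals and the scaling factor in the fit, 7 were higher and 2 lower, with a median of 0.28. In that fit Ugt1a7c was called higher (0.47, SE 0.10, adjusted p = 0.0226). Ugt1a transcripts share their last exons, so a probe there cannot tell them apart.

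Sulfotransferases had more members on the higher side, 5 of 12 at an unadjusted p under 0.05 with 0 lower (median log2 fold change 0.48). Without replicates 5 and 9, 4 of 12 were higher and 0 lower (median 0.32). The shares over all tested features were 3.53% higher and 2.52% lower. Sult2a1, which sulfates hydroxysteroids and bile acids, was at 1.92 to 232 CPM in the controls (median 42.9) and 57.7 to 1320 CPM in the dosed animals (median 249.5). Of the dosed animals, 6 were above every control, and the log2 fold change was 2.64 (SE 0.68, adjusted p = 0.165, 2.73 without replicates 5 and 9). Sult2a2, a near-identical copy, gave 2.39 (SE 0.62). Sult1a1, a phenol sulfotransferase, was at 612 to 1240 CPM in the controls and 920 to 1350 CPM in the dosed animals (log2 fold change 0.51, SE 0.17, adjusted p = 0.507). The exact permutation test, which takes each gene alone, gave p = 0.00107 for Sult2a1 and p = 0.00115 for Sult1a1 (0.00749 for both, adjusted over the 26 genes). DESeq2 called Sult2a1 (2.67, adjusted p = 0.0177). Sult1e1, the estrogen sulfotransferase, was at 156 CPM in replicate 9, at 3.68 CPM or less in the other dosed animals and at 2.28 CPM or less in the controls, and its log2 fold change of 4.87 (SE 1.30, adjusted p = 0.245) went to 0.80 without replicate 9. Sult1d1 gave 0.45 (SE 0.33), and 0.14 without replicate 9.

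Among carriers and binding proteins, Serpina7, the thyroxine-binding globulin of plasma, was at 18.6 to 70.9 CPM in the controls (median 26.7) and 23.4 to 1210 CPM in the dosed animals (median 101). Here too 6 dosed animals were above every control, with replicate 5 far above the rest. The log2 fold change was 2.67 (SE 0.70, adjusted p = 0.206), or 1.40 without replicate 5 (SE 0.63, adjusted p = 0.894). DESeq2 called it (2.68, adjusted p = 0.0179), as did the fit with the scaling factor (2.89, adjusted p = 0.0433). The exact permutation test gave p = 0.00502 for Serpina7 and p = 0.00675 for Slco1a1, or 0.0239 and 0.0251 adjusted over the 26 genes. Slco1a1, a male-biased uptake carrier of organic anions, was at 13.9 to 50.6 CPM in the controls and 0.997 to 38.0 CPM in the dosed animals, lowest in replicates 9 and 5 (log2 fold change -1.25, SE 0.55, adjusted p = 0.704, -0.91 without both). Dio1 was at 114 to 222 CPM in the controls (median 196) and 17.7 to 199.9 CPM in the dosed animals (median 140), lowest in replicates 9 and 5. Its log2 fold change was -0.54 (SE 0.27, adjusted p = 0.811), and -0.28 without both. Slco1b2, an organic anion carrier, gave -0.11 (SE 0.27), Slc10a1, the bile acid uptake carrier, -0.18 (SE 0.16, -0.06 without replicates 5 and 9) and the export pump Abcc2 0.10 (SE 0.11). Ttr, which carries thyroxine in plasma, gave -0.24 (SE 0.19, adjusted p = 0.936, -0.11 without replicates 5 and 9) and Alb 0.02 (SE 0.22, adjusted p = 0.994). Of 17 measured genes for transport, binding and deiodination of the hormone, 2 were higher and 2 lower at an unadjusted p under 0.05, and 0 and 0 without replicates 5 and 9. With the scaling factor in the fit 5 were higher and 1 lower. Of 18 genes that respond to the hormone, 1 (Bcl3) was higher and 2 (Klf9 and Dio1) lower. Without replicate 9, and also without replicates 5 and 9, these counts were 1 and 0. In the main fit 3.53% of all tested features were higher and 2.52% lower. Thrsp, a sensitive thyroid hormone target, gave 0.62 (SE 0.53, adjusted p = 0.951).

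**Figure D4:**
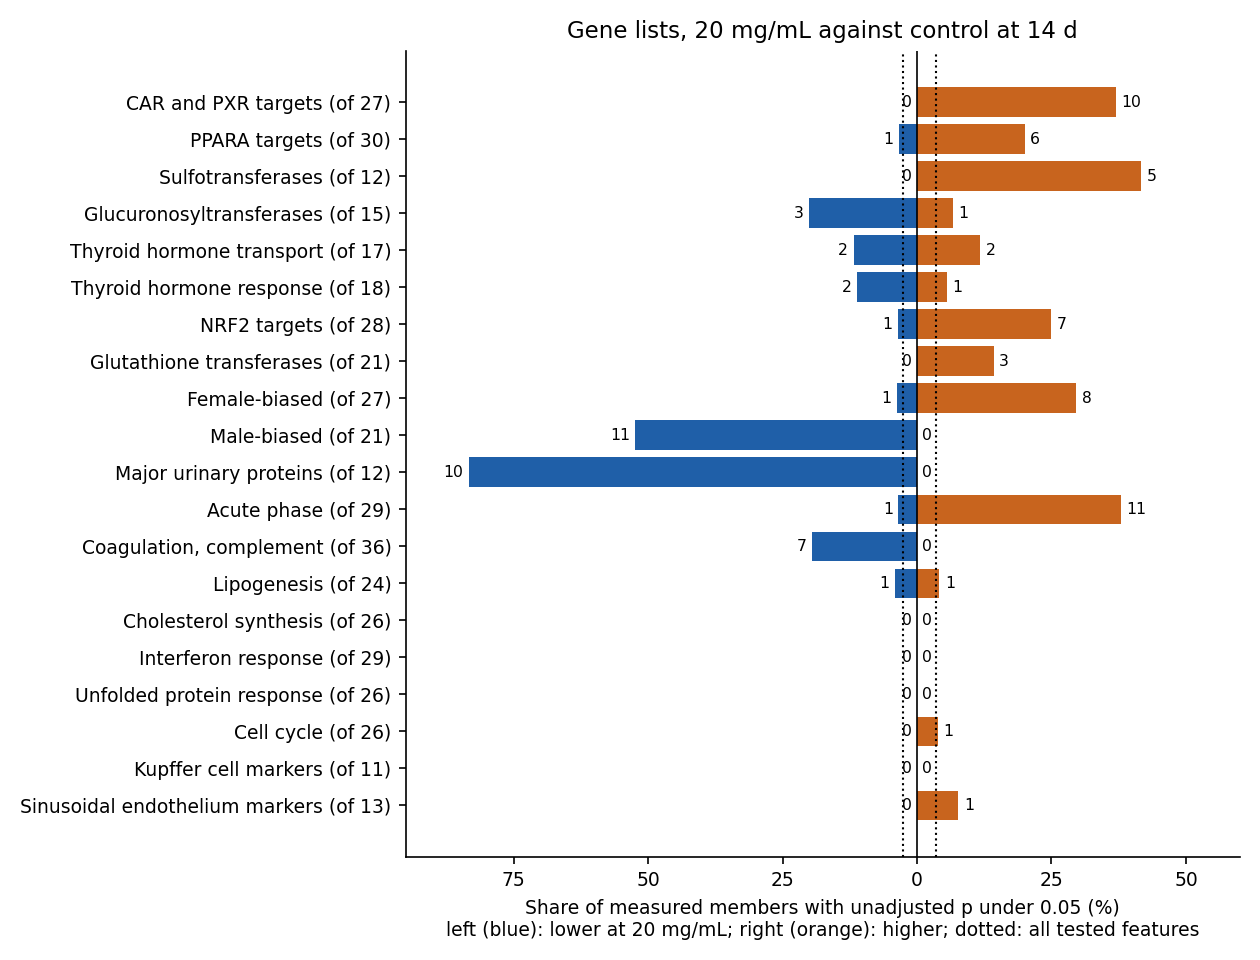
Share of measured members with an unadjusted p under 0.05 in 20 gene lists at 20 mg/mL against control after 14 d, with members higher in the dosed animals to the right, members lower to the left and the number of members at each bar. Dotted lines mark the shares over all 17050 tested features (3.53% higher, 2.52% lower), and 10 of 12 Mup genes stood to the left while 10 of 27 CAR and PXR targets stood to the right.

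Lipid genes were mixed. For the counts that follow, the shares over all tested features were 3.53% higher and 2.52% lower. Of 30 measured targets of PPARA, the fatty acid receptor that drives their oxidation, 6 were higher and 1 lower at an unadjusted p under 0.05 (median log2 fold change 0.07). Cd36, a fatty acid uptake protein, was at 11.6 to 23.3 CPM in the controls (median 17.1) and 11.0 to 55.6 CPM in the dosed animals (median 28.5). All dosed animals but replicate 9 were above every control, and replicate 9 was below all of them. Its log2 fold change was 0.85 (SE 0.22, adjusted p = 0.165), and it passed without replicate 9 (0.96, adjusted p = 0.0363). Acot3, a peroxisomal thioesterase, gave 1.62 (SE 0.50), and the fatty acid hydroxylases Cyp4a10 and Cyp4a14 gave 1.01 (SE 0.32) and 1.21 (SE 0.43). Pctp, which moves phosphatidylcholine between membranes, was at 21.3 to 42.3 CPM in the controls and 26.5 to 69.7 CPM in the dosed animals (log2 fold change 0.67, SE 0.17, adjusted p = 0.165). Among 24 lipogenic genes 1 was higher (Acacb, 0.97, SE 0.33) and 1 lower (Lpin1, -1.44, SE 0.40), which is near the shares over all tested features. None of 26 cholesterol synthesis genes was past that threshold in either direction, nor was any of 30 genes of amino acid breakdown.

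Plasma proteins of clotting and complement had 7 of 36 members lower at an unadjusted p under 0.05, 0 higher and 33 negative log2 fold changes (median -0.19). Among all tested features 2.52% were lower and 3.53% higher. C8b, a subunit of the membrane attack complex, was at 237 to 345 CPM in the controls and 80.1 to 247 CPM in the dosed animals (log2 fold change -0.71, SE 0.28, adjusted p = 0.691). The count was 4 without replicate 9 and also 4 without replicates 5 and 9. With each library's log2 scaling factor in the fit, 5 members were lower and 1 higher, with a median of 0.05. The medians of the Mup and male-biased lists were -0.54 in that fit. The scaling factor itself differed between the groups, with a mean of 0.897 in the controls and 0.999 in the dosed animals. The 10 hepatocyte markers, 2 of which were lower at an unadjusted p under 0.05, had a median of -0.26 in the main analysis and -0.05 with that factor. The part of scaling and of RNA content in these lists was not tested further. Of 26 cell cycle genes 1 (Birc5) was higher and 0 lower (median 0.51), and this 3.85% is near the 3.53% over all tested features. Interferon (29 genes) and unfolded protein response (26 genes) had 0 members past an unadjusted p of 0.05 in either direction.

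Few markers of the other liver cells were past an unadjusted p of 0.05. None of 11 measured Kupffer cell, 6 monocyte, 2 neutrophil, 6 T and natural killer cell, 9 B and plasma cell or 14 stellate cell markers had an unadjusted p under 0.05. Of 13 sinusoidal endothelial markers 1 was higher (Cdh5, log2 fold change 0.53, SE 0.20) and 1 of 4 bile duct markers lower (Krt7, which was at 1.33 CPM or less in every animal). Summed Kupffer cell markers were at 231 to 311 CPM in the controls and 140 to 416 CPM in the dosed animals, and summed endothelial markers at 539 to 689 CPM and 367 to 698 CPM. Replicate 9 was the lowest dosed animal in both, and replicate 5 the highest in both. Only 2 of 8 pancreatic, 1 of 7 adipocyte and 3 of 8 red blood cell precursor markers passed the filter on low counts.

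The neighbouring doses were compared directly, without the controls. Between 20 and 10 mg/mL at 14 d, 2 features passed (0.0117%). Btg2, an antiproliferative early-response gene, was higher at 20 mg/mL (log2 fold change 1.66, SE 0.33, adjusted p = 0.0259). Its call was kept with 10 of the 18 animals left out in turn and in 7 of 11 alternative analyses. Mmp7, a matrix metalloproteinase, was lower (-6.36, SE 1.18, adjusted p = 0.0172), which rested on 10 mg/mL replicate 2, as without it the value was -3.07 (adjusted p = 0.540). Leaving out 1 animal gave 0 (without 10 mg/mL replicate 2 or 20 mg/mL replicate 3) to 3 calls. Between 40 and 20 mg/mL, 147 features passed (0.862%), 34 higher and 113 lower at 40 mg/mL. Those with the smallest p among the higher ones were Gas2l3, which acts in cytokinesis (2.53, SE 0.52), Spata24 (1.71, SE 0.36), G2e3, a ubiquitin ligase (0.84, SE 0.19), Cep295, a centriole protein (0.74, SE 0.16), and Acaca, the first enzyme of fatty acid synthesis (1.21, SE 0.27). Among the lower ones they were Gltpd2 (-1.44, SE 0.25), Mul1, a mitochondrial ubiquitin ligase (-0.94, SE 0.17), Cyp2e1, the alcohol-oxidising P450 (-0.997, SE 0.18), Ctsa, a lysosomal carboxypeptidase (-0.76, SE 0.14), and Apoh, a plasma apolipoprotein (-0.90, SE 0.18). This count ran from 9 without 40 mg/mL replicate 1 to 362 without 40 mg/mL replicate 3, and no feature passed when the 2 groups were fitted alone (1121 at an unadjusted p under 0.05).

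The 3 doses at 14 d share their controls, so their values are set side by side without a comparison. Cyp2a22 gave 1.74 at 10, 2.13 at 20 and 1.98 at 40 mg/mL, and Cyp2b10 gave 3.76, 3.45 and 4.09. Cyp2c55 gave 2.76, 3.12 and 1.44, and Cyp2c29 gave 1.79, 1.83 and 1.15. Mug1 gave -0.44, -1.02 and -1.95, Mup20 gave 0.37, -0.77 and -1.56, and Ugt1a1 gave 0.06, -0.05 and -0.93. Saa2 gave -0.29 at 10 and 6.05 at 20 mg/mL, the latter through 1 animal.

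**Figure D5:**
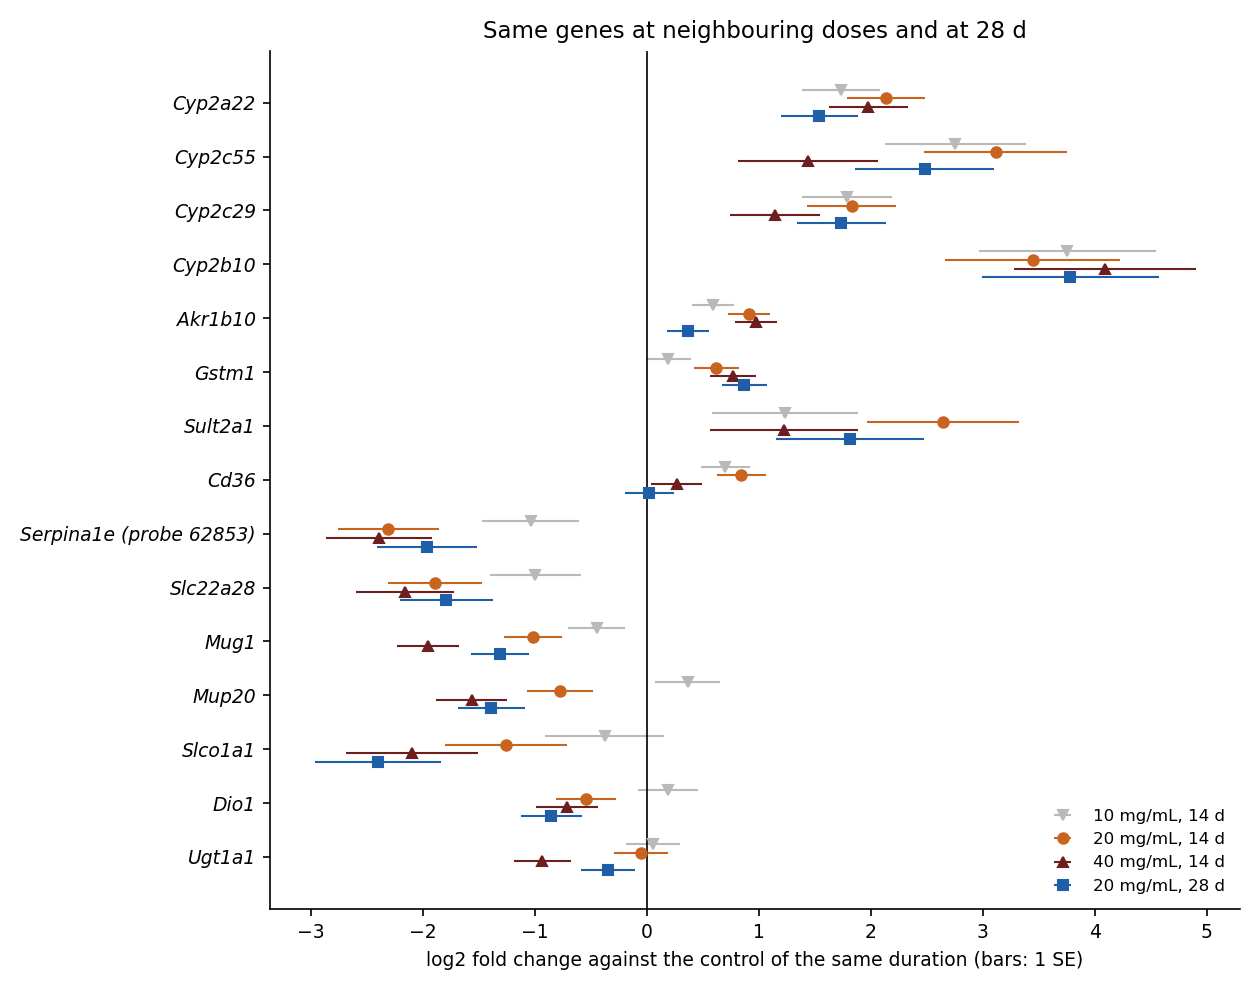
Log2 fold change against the control of the same duration (points, with bars of 1 SE) for 15 genes at 10, 20 and 40 mg/mL after 14 d and at 20 mg/mL after 28 d. The 3 doses at 14 d share their controls, the 28 d animals have their own, and Mug1 went from -0.44 at 10 to -1.95 at 40 mg/mL while Cyp2b10 stayed between 3.45 and 4.09.

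The same dose after 28 d, in other animals with their own controls, gave 27 calls (0.158%), 11 higher and 16 lower. Cyp2a22 and the less abundant probe of Serpina1e were called at both times, which is 33.3% of the 6 calls at 14 d and 7.41% of the 27 at 28 d. All 6 features called at 14 d had the same sign at 28 d, as did 26 of the 27 features called at 28 d in the 14 d comparison. Of the 1032 features with an unadjusted p under 0.05 at 14 d, 851 (82.5%) had the same sign at 28 d, against 64.2% of all tested features. The higher genes with the smallest p at 28 d were Cyp2b10 (3.78, SE 0.79), Cyp2a22 (1.54, SE 0.34), Gstm1 (0.87, SE 0.20), Cyp2c29 (1.74, SE 0.40) and Tle3, a transcriptional corepressor (1.13, SE 0.26). The lower ones were Mug1 (-1.31, SE 0.26), Mup20 (-1.39, SE 0.30), Gm10681 (-3.27, SE 0.71), Avpr1a, the liver vasopressin receptor (-0.85, SE 0.19), and Bnip3l, a mitophagy receptor (-0.43, SE 0.10). In the 14 d comparison Bnip3l gave -0.08 (SE 0.10) and Gm10681 -2.42 (SE 0.69). The 28 d calls sat at adjusted p values of 0.0497. Leaving out 1 animal gave 0 calls in most of the 18 fits (without control replicate 1, for example). The highest count was 761, without control replicate 3. That control had the lowest summed hepatocyte markers of its group, 16800 CPM against a median of 55700 CPM. Replicate 9 was lowest among the dosed animals at 28 d, at 15400 CPM against a median of 33000 CPM, and 8 features were called without it. The part of these libraries in the 28 d results was not tested further.

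The difference between the effects at 28 d and 14 d was tested for every feature, and 0 of 17050 passed in edgeR (0%). At an unadjusted p under 0.05 there were 537, while DESeq2 and limma also called 0 (638 and 1030 at an unadjusted p under 0.05). For Cyp2b10 the difference was 0.34 (SE 1.00) and for Cyp2a22 it was -0.59 (SE 0.48). Cyp4a10 gave -1.33 (unadjusted p = 0.00413), with a log2 fold change of 1.01 at 14 d and -0.32 at 28 d, and Cd36 gave -0.82 (unadjusted p = 0.00915), with 0.85 and 0.03. Both had an adjusted p above the threshold.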

How the data were processed

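The authors deposited 1 table of read counts per probe for 72 mouse liver libraries. Per the submitters' processing notes, reads were handled with bcl2fastq 2.20 and Bowtie, and the Bowtie version, its settings, the counting tool and the probe sequences are not given in the sources used here. The deposited counts are whole numbers and not normalised. Groups were taken from the labels, 1 animal per library. Within the dosed group and within the control group of the main comparison, no pair of libraries held identical values. Other pairs were not compared. A library of 10796 counts at 40 mg/mL for 14 d was left out.

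All 8 groups entered 1 edgeR 4.0.16 quasi-likelihood fit with robust estimation (R 4.3.3, TMM scaling, filterByExpr, 17050 of 30146 features kept with 99.9% of the counts), and p values were adjusted by Benjamini-Hochberg over all tested features at 0.05. DESeq2 1.42.0, limma 3.58.1, other scalings, filters and fits, and fits without each animal were alternatives, and leaving out dosed replicates 5 and 9 together was added after seeing the data. The scripts were tested on simulated data. At 7.89 to 12.7 M counts per library, features near 1 CPM rest on few reads and carry the widest counting error.

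The comparison, gene lists, tests and naming rule were chosen with earlier results of these data known. Named were 26 fixed genes (1 of them is not reported here), every called feature of the main comparison, the 5 features with the smallest p in a direction with fewer than 5 calls, and up to 5 called features per direction in other contrasts. Other genes, such as those just outside the threshold and examples from lists, were chosen after their values were seen. Where a gene has several probes, the most abundant one stands for it unless another is named. Promoter windows are from RefSeq (GRCm38.p6).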

Additional observations from a re-analysis of the deposited data

Results flagged for a closer look

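The spread was examined on log2 CPM in 72 groups (9 animals each, 36 features). In 14 of them the highest or lowest animal stood off from the nearest other by more than 0.493 of the group's log2 range. Of the 14, 9 were dosed groups and 5 control groups. Chance gives such a gap in about 1 of 20 groups if log2 levels are normally distributed. That rate is no test here, as features such as Saa2 were named through the animal that stood off. Levels below are in CPM.

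Dosed replicate 9 was the outlying animal for Sult1d1 (192 CPM, nearest 77.2), Sult1e1 (156 CPM, nearest 3.68), Dio1 (17.7 CPM, nearest 64.1) and Cyp1a2 (50.6 CPM, nearest 155). Dosed replicate 5 was the outlying animal for Saa2 (43400 CPM, nearest 81.1), Serpina7 (1210 CPM, nearest 142) and Ugt2b35 (120 CPM, nearest 169). Ugt1a9 stood at 0 CPM in dosed replicate 2 (nearest 1.71), and Alb at 8800 CPM in dosed replicate 4 (nearest 6440).

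Among the controls, replicate 1 was lowest for Dio1 (114 CPM, nearest 177) and highest for Ttr (6260 CPM, nearest 4980). Control replicate 4 was lowest for Sult2a1 (1.91 CPM, nearest 21.7) and for Akr1b10 (3.06 CPM, nearest 5.78), and control replicate 3 was highest for Sult1d1 (97.0 CPM, nearest 58.4).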

How the results depend on the processing

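No paired analysis was possible because the replicate numbers follow accession order and pair no animals. Under 11 alternatives the 6 calls of the main comparison became 17 with DESeq2, 19 with limma, 13 without robust estimation, 13 with features of at least 5 CPM, 25 with the scaling factor as a covariate and 11 with probes summed per gene, while the other counts were 4 to 9. Fitting the groups alone gave 9, of which 1 was among the 6. Unadjusted calls split 602 higher to 430 lower, 604 to 696 with limma and 1629 to 1698 without a filter.

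For 20 against 10 mg/mL, 2 calls became 4 with DESeq2 or without robust estimation, 5 with the covariate, 1 with summed probes and 0 with limma (1342 unadjusted), with the groups alone (781) or without dosed replicates 5 and 9 (840). For 40 against 20 mg/mL, 147 became 351 with DESeq2, 55 with limma, 74 without a filter, 262 at 5 CPM, 0 with the groups alone and 97 without replicates 5 and 9, and the covariate turned the split from 34 higher and 113 lower to 77 and 72. For 28 d, 27 became 223 with DESeq2, 463 with limma, 111 at 5 CPM, 12 with the covariate, 52 with the groups alone, 63 with summed probes, and 0 with DESeq2 size factors (2653 unadjusted), TMM without the 20 most abundant features (2570) or no filter (4651). Leaving out 1 animal gave 1 to 14, 0 to 3, 9 to 362 and 0 to 761 calls for these 4 comparisons, and in the last of them most such fits gave 0. The test of 28 d against 14 d gave 0 under every alternative run.

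Signs turned for genes near 0 and for Saa2. Saa2 gave -0.57 with DESeq2, -0.0076 with limma and -0.54 without replicates 5 and 9. With the covariate, Ugt1a1 gave 0.28, Slco1b2 0.19 and Cyp1a2 0.053, and without replicates 5 and 9 Slco1b2 gave 0.027 and Cyp1a2 0.027. Ugt1a9 gave -0.39 with limma. Leaving out 1 animal gave ranges of -0.60 to 6.22 for Saa2, -0.14 to 0.0018 for Ugt1a1, -0.19 to 0.27 for Ugt1a9, -0.21 to 0.0074 for Slco1b2 and -0.064 to 0.060 for Alb. The cause was not tested.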
